A study of Mus musculus with 12 samples.

Results

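Collagen chain genes are described here across 12 pituitary libraries from newborn mice. A gene was included when its symbol in the table of individual samples was Col, a number, the letter a and a number; Col17a1 and Col25a1, which encode transmembrane collagens, were left out. The rule gave 41 genes of 27129 in the table, and they were sorted by known role into 8 fibrillar, 9 basement membrane, 7 cartilage and 17 other chains. RNA was sequenced from whole pituitaries taken at postnatal day 0 with the posterior lobe removed. The study asks what changes when Isl1, a LIM-homeodomain transcription factor gene, is deleted in pituitary progenitors. Glands labelled mutant carried 1 floxed and 1 null Isl1 allele (Isl1fx/-), and control glands carried 1 floxed and 1 intact allele (Isl1+/fx). Both groups of 6 libraries also carry a Cre transgene that acts in pituitary progenitors, so that they differ in the other Isl1 allele. The labels and design name the samples as individual samples and give no litter or strain, so the p-values rest on the variation among these 12 samples.

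Libraries labelled mutant held 45415453 to 61533576 fragments and control libraries 46204920 to 51535425. Isl1 was higher in the libraries labelled mutant, at 59.3 ± 4.98 CPM, against 35.4 ± 3.04 CPM in controls (SD, n = 6 each; log2 fold change 0.74, SE 0.0652, edgeR quasi-likelihood adjusted p = 8.71e-06). All exons of the gene are pooled in this value, so it cannot tell transcripts with the floxed exons from those without them and does not check the labels. CPM is the fragments of a gene relative to the TMM-scaled library total, taken over the genes tested, and is used to compare libraries. FPKM, which also divides by transcript length, is used to compare genes.

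Collagens are trimers of alpha chains wound into a triple helix, made mostly by mesenchymal cells and, for basement membranes, also by epithelium and endothelium. Fibrillar collagens I, III and V form the rope-like fibrils of stroma, collagen IV forms the sheet network under epithelium and around capillaries, and collagen VII forms anchoring fibrils that tie a basement membrane to the stroma below. In the anterior pituitary, collagens lie in the capsule, around the sinusoids and in the basement membranes between endocrine cords and vessels.

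The start regions of the 5 called chains are given here (2 for Col18a1, which has 2 annotated starts with a window), with an abundant chain of the same class that was not called beside them: Col4a1 for basement membrane and Col3a1 for fibrillar collagens. Each line covers 250 bases before to 50 bases after the gene start in RefSeq (GRCm38.p6, the assembly named mm10), read 5′ to 3′ on the gene's strand. The capitals mark matches on either strand of the TATA box (TATAAA), the CCAAT box (CCAAT) and the GC box (GGGCGG), 3 elements common at gene starts. The windows lie at chr9:108953336-108953635 (plus strand, Col7a1), chrX:141475169-141475468 (plus, Col4a5), chr8:11312777-11313076 (minus, Col4a1), chr10:77166481-77166780 and chr10:77113656-77113955 (minus, Col18a1), chr9:20815018-20815317 (minus, Col5a3), chr3:145292222-145292521 (plus, Col24a1) and chr1:45311288-45311587 (plus, Col3a1).
Col7a1: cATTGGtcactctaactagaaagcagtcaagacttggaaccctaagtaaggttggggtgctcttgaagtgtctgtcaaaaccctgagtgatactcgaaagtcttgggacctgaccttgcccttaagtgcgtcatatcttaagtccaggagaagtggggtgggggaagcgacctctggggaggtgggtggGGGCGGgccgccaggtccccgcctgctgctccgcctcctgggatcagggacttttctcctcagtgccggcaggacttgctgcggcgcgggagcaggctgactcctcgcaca
Col4a5: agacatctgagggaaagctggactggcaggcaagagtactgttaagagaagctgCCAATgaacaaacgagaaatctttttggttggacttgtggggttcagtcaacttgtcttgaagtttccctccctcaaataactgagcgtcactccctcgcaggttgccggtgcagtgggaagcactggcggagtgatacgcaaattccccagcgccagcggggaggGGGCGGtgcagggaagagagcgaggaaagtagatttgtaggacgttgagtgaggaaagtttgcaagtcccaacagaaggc
Col18a1 start 1: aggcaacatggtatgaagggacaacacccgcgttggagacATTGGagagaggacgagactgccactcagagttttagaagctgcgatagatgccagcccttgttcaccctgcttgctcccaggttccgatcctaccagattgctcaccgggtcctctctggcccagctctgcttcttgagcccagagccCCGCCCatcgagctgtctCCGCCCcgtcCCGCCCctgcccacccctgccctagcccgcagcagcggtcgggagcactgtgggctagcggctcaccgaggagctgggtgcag
Col18a1 start 2: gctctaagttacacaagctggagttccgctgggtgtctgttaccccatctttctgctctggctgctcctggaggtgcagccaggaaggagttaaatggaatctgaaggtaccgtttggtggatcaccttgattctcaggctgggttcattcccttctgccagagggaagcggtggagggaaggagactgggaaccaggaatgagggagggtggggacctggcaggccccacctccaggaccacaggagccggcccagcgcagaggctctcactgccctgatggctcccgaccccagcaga
Col4a1: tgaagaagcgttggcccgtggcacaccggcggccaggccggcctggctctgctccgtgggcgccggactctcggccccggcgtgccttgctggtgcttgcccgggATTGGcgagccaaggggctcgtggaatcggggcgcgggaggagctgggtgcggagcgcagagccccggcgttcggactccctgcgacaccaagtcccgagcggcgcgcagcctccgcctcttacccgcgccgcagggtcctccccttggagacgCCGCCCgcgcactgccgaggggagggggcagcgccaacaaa
Col5a3: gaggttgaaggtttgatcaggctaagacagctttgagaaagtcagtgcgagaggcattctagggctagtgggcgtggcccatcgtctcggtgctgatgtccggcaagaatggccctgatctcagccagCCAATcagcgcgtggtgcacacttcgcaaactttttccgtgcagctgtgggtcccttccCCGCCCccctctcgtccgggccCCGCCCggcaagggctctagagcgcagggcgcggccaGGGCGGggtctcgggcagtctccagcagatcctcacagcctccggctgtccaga
Col24a1: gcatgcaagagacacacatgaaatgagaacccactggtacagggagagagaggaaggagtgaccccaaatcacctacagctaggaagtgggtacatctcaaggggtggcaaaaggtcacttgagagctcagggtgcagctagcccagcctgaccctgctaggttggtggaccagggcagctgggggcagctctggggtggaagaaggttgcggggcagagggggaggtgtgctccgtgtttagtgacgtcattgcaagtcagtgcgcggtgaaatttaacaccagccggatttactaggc
Col3a1: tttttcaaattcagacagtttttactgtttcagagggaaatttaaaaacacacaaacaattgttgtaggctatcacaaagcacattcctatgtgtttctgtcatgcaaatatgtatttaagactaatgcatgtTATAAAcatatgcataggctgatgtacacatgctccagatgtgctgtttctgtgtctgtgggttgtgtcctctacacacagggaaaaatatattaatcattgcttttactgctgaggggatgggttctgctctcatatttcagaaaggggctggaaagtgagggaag

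RefSeq windows were found for 33 of the 41 chains, 36 windows in all, because some chains have more than 1 start. Of these, 4 held a TATA box, 11 a CCAAT box and 22 a GC box as spelled above, against 13.6%, 37.4% and 35.7% of all 32851 windows. Among the windows printed, Col7a1, Col4a5, Col5a3 and Col4a1 each held a CCAAT box and at least 1 GC box. Of the Col18a1 windows, the first held a CCAAT box and 3 GC boxes and the second none of the motifs. Col3a1 held a TATA box and no GC box, and Col24a1 held none of the 3 motifs. A match is a description of the letters and not of a bound site. Some collagen IV genes lie head to head: the starts of Col4a2 and Col4a1 are 21 bp apart on chromosome 8, so that their windows share 78 bases, and those of Col4a5 and Col4a6 are 1343 bp apart on the X chromosome.

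Among the collagen chains, transcripts of fibrillar collagens I and III were the most abundant. By mean FPKM, Col3a1 stood at 234 ± 14.4 in libraries labelled mutant and 234 ± 43.2 in controls, and Col1a1, the main chain of collagen I, at 226 ± 29.3 in mutant and 224 ± 83.2 in control libraries (SD, n = 6 each). Its partner Col1a2 followed at 194 ± 23.8 in mutant and 188 ± 57.3 FPKM in control libraries. The basement membrane chain Col4a1 came next at 117 ± 8.68 FPKM in mutant and 120 ± 7.37 FPKM in control libraries. These group means lay within the spread of the libraries. Relative to the TMM-scaled total of the genes tested, the 41 chains together averaged 0.840% in libraries labelled mutant and 0.822% in controls.

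**Figure D1:**
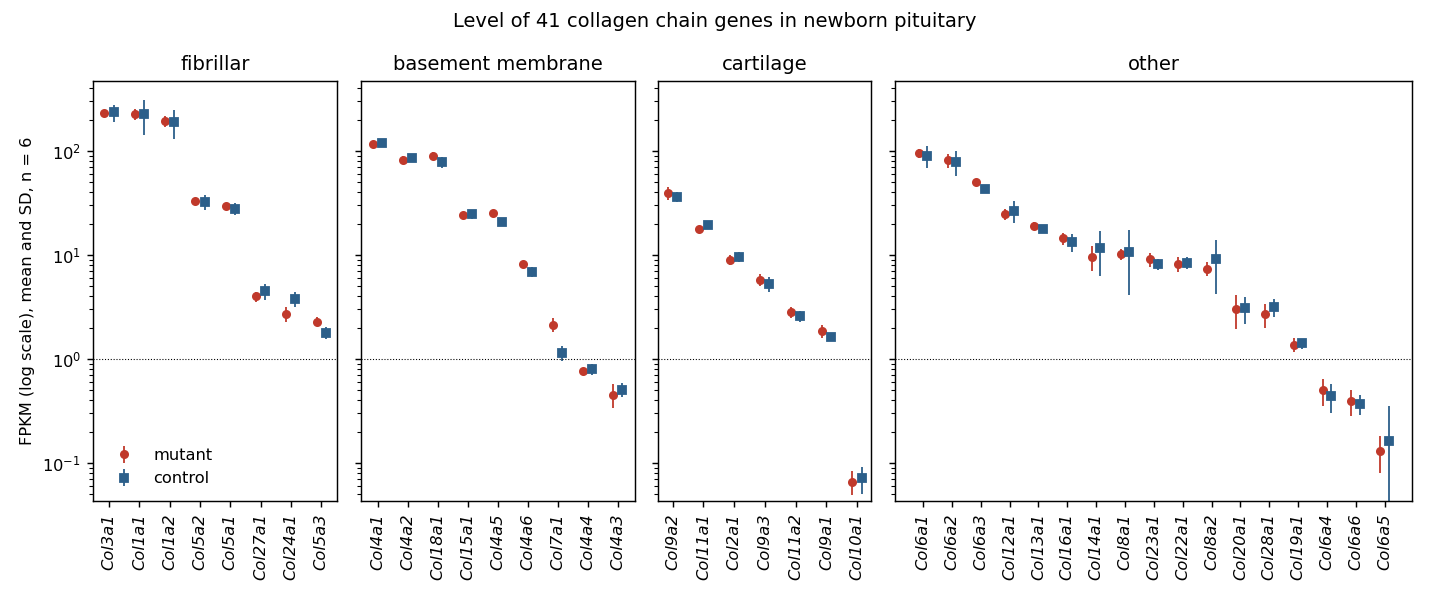
Mean FPKM with the SD over 6 libraries (log axis) for the 41 collagen chains by class, libraries labelled mutant in red and controls in blue; the dotted line marks 1 FPKM. Col3a1 stands highest at 234 FPKM in both groups, 6 chains lie below the line in both groups, and Col7a1 shows the widest gap between groups.

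Of the 41 chains, 35 reached 1 FPKM in at least 6 of the 12 libraries and were tested. The other 6 reached it in 0 libraries: Col4a3 and Col4a4, which with Col4a5 form the collagen IV network of kidney glomeruli, Col10a1, the chain of hypertrophic cartilage, and the collagen VI chains Col6a4, Col6a5 and Col6a6. Col4a4 had 242 to 405 fragments per library and Col10a1 had 6 to 17, so transcripts of these chains were detected but at low levels.

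Of 5 collagen chains that differed between the groups, 3 were basement membrane chains. Of the 35 tested, 4 rose in the libraries labelled mutant (Col7a1, Col5a3, Col4a5 and Col18a1) and 1 fell (Col24a1) at an edgeR adjusted p under 0.05. That is 14.3% of the chains, beside 7.05% of all 15246 genes tested; higher calls made up 4.3% and lower calls 2.75% of all genes (656 and 419; with library totals in place of TMM, 734 and 282). The groups did not overlap for 3 chains, Col7a1, Col5a3 and Col18a1, all higher in the libraries labelled mutant, beside 4.28% of all genes in either direction and 2.91% in that direction. At an unadjusted p under 0.05 there were 11 chains of 35, against 22.3% of all genes. The median log2 fold change was 0.03 over the 35 chains and -0.0036 over all genes. In a whole gland, fewer cells of a type and less RNA per cell cannot be told apart.

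**Figure D2:**
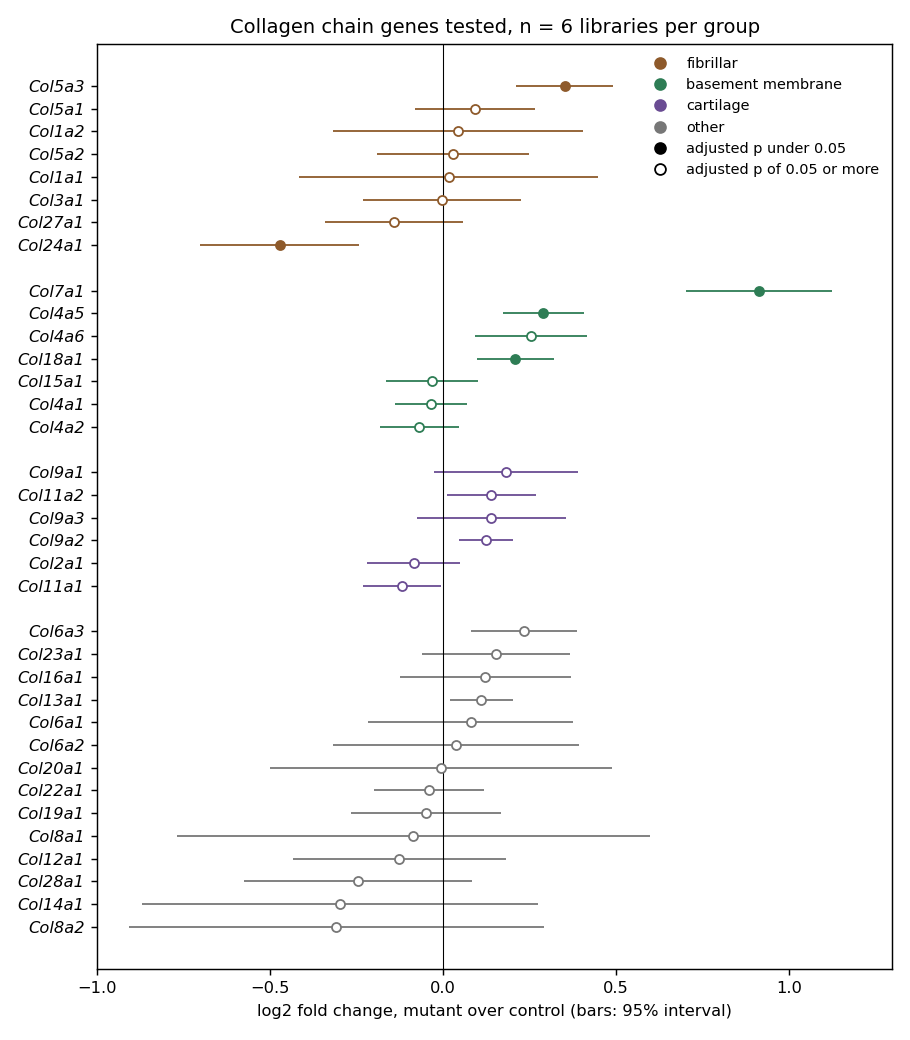
Log2 fold change (mutant over control) with its 95% interval for the 35 collagen chains tested, by class; filled points have an edgeR adjusted p under 0.05. Col7a1 stands apart at 0.91, 3 of the 5 filled points are basement membrane chains, and the intervals of Col8a1, Col8a2 and Col14a1 are the widest.

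Basement membrane chains gave 3 calls among 7 tested, all higher in the libraries labelled mutant, beside 4.3% of all genes called higher. Their median log2 fold change was 0.21, and the count of calls ran from 2 to 4 over the alternative settings. Col7a1 (chromosome 9, 108953586 to 108984875, mm10), the only chain of collagen VII, ranged over 16.8 to 24.5 CPM in libraries labelled mutant with a median of 21.6, against 8.98 to 12.3 CPM in controls with a median of 11.3. Every mutant library stood above every control library. The fold was 1.88 (95% interval 1.63 to 2.18; log2 fold change 0.91, SE 0.0985, edgeR adjusted p = 4.8e-05). The call was kept in all 24 alternative settings that tested the gene, with an adjusted p of at most 0.0016. Its level was low, at 2.13 FPKM in mutant and 1.14 FPKM in control libraries by the authors' deposited table. The microRNA gene Mir711 lies within Col7a1, and the library kit keeps no strand.

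Markers of stratified epithelium, which builds anchoring fibrils from collagen VII in skin, were also higher in the libraries labelled mutant. Of the 8 listed genes, Krt14, Dsc3 and Krt4 averaged over 1 FPKM in both groups and rose, beside 4.3% of all genes called higher. Krt5, Krt15, Trp63 and Ly6d were called too, but these 4 averaged under 1 FPKM in controls and passed the level filter through the mutant libraries, so the count of called markers is a description only. The 8 markers, these 4 included, summed to 56.4 to 123 CPM in libraries labelled mutant, against 12.4 to 17.6 CPM in controls. This sum, too, is a description only. Krt5, a basal keratin, averaged 13.5 ± 4.85 CPM in mutant and 0.419 ± 0.498 CPM in control libraries (SD, n = 6 each). Their part in the result for Col7a1 was not tested. This list was chosen with earlier results of these data known.

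Col4a5 and Col4a6 encode the alpha-5 and alpha-6 chains of collagen IV, which share a trimer in the basement membranes of many epithelia. Col4a5 (X chromosome, 141475370 to 141689236) ranged over 147 to 182 CPM in libraries labelled mutant with a median of 171, against 123 to 150 CPM in controls with a median of 139. The ranges touched only where the lowest mutant library, at 147 CPM, fell under the highest control library, at 150 CPM. Col4a5 rose with a log2 fold change of 0.29 (SE 0.0547, edgeR adjusted p = 0.00538), and this call was kept in all 25 alternative settings. Col4a6 ranged over 49.1 to 61.2 CPM in libraries labelled mutant with a median of 56.7, against 38.4 to 53.5 CPM in controls with a median of 48.6. The groups overlapped, and Col4a6 missed the threshold with a log2 fold change of 0.25 (SE 0.0753, edgeR adjusted p = 0.0592). It passed in 5 of 25 alternative settings. The ratio of Col4a5 to Col4a6 by FPKM averaged 3.11 ± 0.115 in mutant and 3.04 ± 0.182 in control libraries (SD, n = 6 each).

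Both genes are X-linked, and the libraries differed in Xist, the RNA of the inactive X. Xist was above 10 CPM in 3 libraries, of which 2 were labelled mutant and 1 was a control. The values by Xist level are a description only. Among the libraries with low Xist, Col4a5 lay between 168 and 175 CPM in 4 mutant libraries and between 123 and 150 CPM in 5 controls. Among those with high Xist it was 147 and 182 CPM in the mutant libraries and 136 CPM in the control. For Col4a6 the low-Xist libraries overlapped, at 53.1 to 61.2 CPM in mutants and 38.4 to 53.5 CPM in controls, and those with high Xist had 49.1 and 61.1 CPM in mutants and 48.6 CPM in the control.

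Col18a1 (chromosome 10, 77052178 to 77166530), which encodes the basement membrane collagen whose C-terminal fragment is endostatin, ranged over 445 to 499 CPM in libraries labelled mutant with a median of 470, against 367 to 444 CPM in controls with a median of 401. The groups did not overlap, though the closest libraries differed by little. Col18a1 rose with a log2 fold change of 0.21 (SE 0.0515, edgeR adjusted p = 0.0272). It lost its call in 10 of 25 alternative settings, among them the 2 limma fits, where the adjusted p was 0.198. Without both libraries numbered 0 the adjusted p was 0.0894, without the 3 high-Xist libraries it was 0.128, and leaving out control 0, 1 or 4 or mutant 0, 2 or 4 gave 0.0507 to 0.0639. By the authors' deposited table its group FPKM was 89.7 in mutant and 78.1 in control, with a q-value of 0.142. In the same table nearly all of this level sat on 1 transcript, at 86.5 FPKM in mutant and 75.1 FPKM in control, while the other had 3.26 FPKM in mutant and 3.06 FPKM in control.

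The abundant network chains of collagen IV did not pass the test. Col4a1 ranged over 730 to 865 CPM in libraries labelled mutant and 765 to 870 CPM in controls, and the 95% interval of its fold ran from 0.908 to 1.05. For Col4a2, its partner in the same trimer, the interval ran from 0.881 to 1.03. Col15a1, the relative of Col18a1 found next to basement membranes of vessels and muscle, had an interval of 0.892 to 1.07. Differences within these intervals were not resolved by the 12 libraries.

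**Figure D3:**
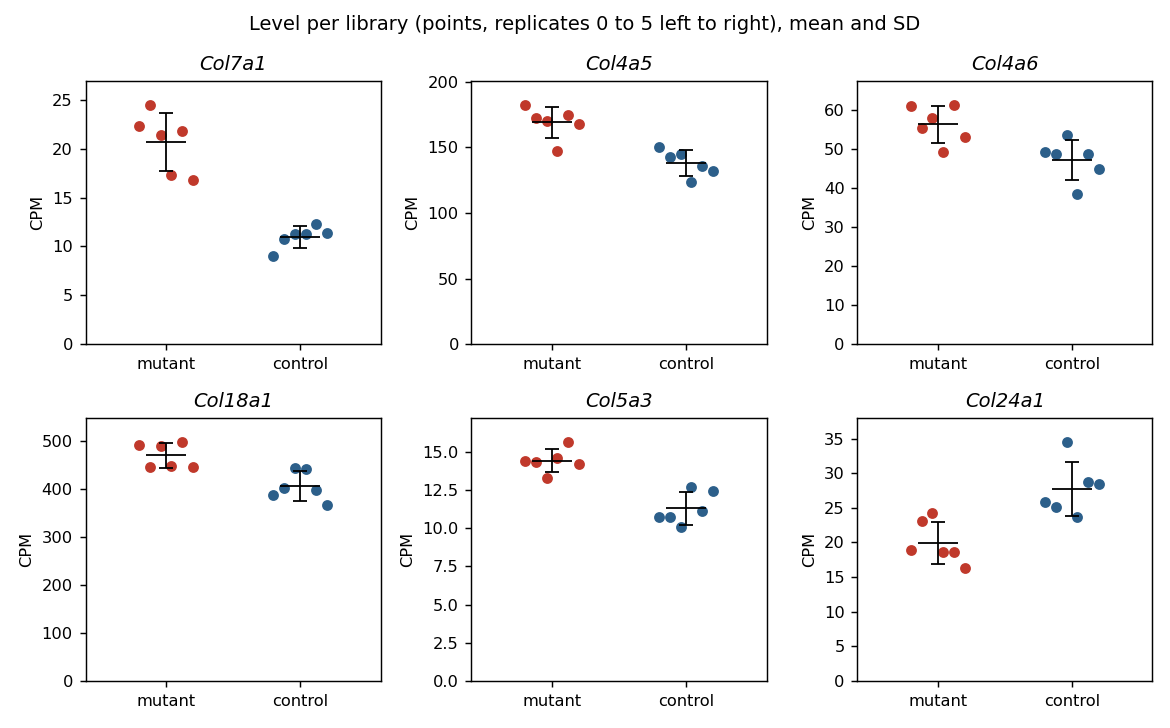
TMM-scaled CPM in each of the 6 libraries labelled mutant (red, left) and 6 controls (blue, right), with the mean and SD, for the 5 called chains and Col4a6. Mutant libraries lie above all controls for Col7a1, Col5a3 and Col18a1, while Col4a5, Col4a6 and Col24a1 overlap.

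Of 20 laminins and other basement membrane proteins tested, 1 rose and 1 fell, 10% beside 7.05% of all genes, and 18 did not pass, with a median log2 fold change of 0.05. Lamb3, a chain of laminin-332, the laminin that collagen VII binds in skin, averaged 18.5 ± 3.03 CPM in mutant and 10.3 ± 0.809 CPM in control libraries (SD, n = 6 each). It rose with a log2 fold change of 0.85 (SE 0.0992, edgeR adjusted p = 1e-04). Lamc3, a laminin gamma chain, fell to 8.15 ± 1.11 CPM in mutant libraries, against 13.0 ± 1.34 CPM in controls (log2 fold change -0.67, SE 0.0996, edgeR adjusted p = 0.000795).

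Fibrillar chains gave 1 call in each direction among 8 tested, both in minor chains, which is 25% beside 7.05% of all genes. The median log2 fold change of the class was 0.02. The fibril-forming cartilage chains Col2a1, Col11a1 and Col11a2 were counted with the cartilage class and were not called (edgeR adjusted p = 0.462, 0.204 and 0.185). Col5a3 (chromosome 9, 20770050 to 20815117), a chain of collagen V that joins its alpha-1 and alpha-2 chains in some tissues, ranged over 13.3 to 15.7 CPM in libraries labelled mutant with a median of 14.4, against 10.1 to 12.7 CPM in controls with a median of 10.9. Every mutant library was above every control. Col5a3 rose with a log2 fold change of 0.35 (SE 0.0649, edgeR adjusted p = 0.00456). Its level by FPKM was 2.28 ± 0.226 in mutant and 1.79 ± 0.243 in control libraries, while the main collagen V chains did not pass and stood at 29.7 FPKM in mutant and 27.9 FPKM in control for Col5a1, and at 32.8 FPKM in mutant and 32.1 FPKM in control for Col5a2. The call was lost in both limma fits (adjusted p 0.0805 and 0.0876) and without the 3 high-Xist libraries (0.0528).

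Col24a1 (chromosome 3, 145292472 to 145552013), a fibrillar chain known from developing bone and cornea, ranged over 16.3 to 24.2 CPM in libraries labelled mutant with a median of 18.8, against 23.7 to 34.6 CPM in controls with a median of 27.1. The groups overlapped only between the highest mutant and the lowest control library. Col24a1 fell with a log2 fold change of -0.47 (SE 0.106, edgeR adjusted p = 0.0166). Without the 3 high-Xist libraries the adjusted p was 0.148. A long noncoding RNA gene, Gm35133, overlaps Col24a1, and the kit keeps no strand, so their reads may not be separable.

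Collagens I and III were alike in the group means and wide in the spread of controls. Col1a1 ranged over 828 to 1237 CPM in libraries labelled mutant with a median of 1106, against 684 to 1714 CPM in controls with a median of 955. The controls bracket all mutant libraries. The log2 fold change was 0.02 (SE 0.201, edgeR adjusted p = 0.974), and the 95% interval of the fold ran from 0.749 to 1.37, and differences inside that interval were not resolved by these libraries. For Col3a1 the interval ran from 0.851 to 1.17.

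Cartilage chains gave 0 calls among 6 tested by edgeR, against 3 at an unadjusted p under 0.05. DESeq2, which called 11.4% of all genes, called 1 of the cartilage chains, Col9a2. Col9a2, a chain of collagen IX that sits on the surface of type II fibrils, was the most abundant of them at 39.3 FPKM in mutant and 36.2 FPKM in control by the authors' deposited table. It ranged over 100.01 to 115 CPM in libraries labelled mutant with a median of 109, against 96.4 to 102 CPM in controls with a median of 99.6. The groups overlapped by little, and its log2 fold change of 0.12 missed the threshold (SE 0.0358, edgeR adjusted p = 0.0535). Col2a1, the main chain of cartilage fibrils, stood at 45.9 CPM in mutant and 49.9 CPM in control libraries by median, and its fold interval ran from 0.860 to 1.03. Of 17 cartilage and bone markers in the table, 12 stayed below the level filter. Of the 5 tested, 2 rose, Chad and Runx2, beside 4.3% of all genes (log2 fold changes 1.69 and 0.31, edgeR adjusted p = 4.84e-05 and 0.0105). Runx2 kept its call in 21 of 24 alternative settings, with an adjusted p up to 0.128 in the others. Without the 3 high-Xist libraries it was 0.0725. Sox9 averaged 34.3 ± 3.03 CPM in mutant and 34.4 ± 3.79 CPM in control libraries (SD, n = 6 each); it is also active outside cartilage. Matn1, a cartilage matrix gene below the level filter, averaged 0.217 ± 0.275 CPM in mutant and 0.0883 ± 0.0821 CPM in control libraries (SD, n = 6 each). It ranged over 0.0663 to 0.771 CPM in mutant and 0 to 0.217 CPM in control libraries, so the groups overlapped. Acan, another cartilage matrix gene, differed widely between libraries.

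Among the 14 other chains tested, edgeR called 0, against 2 at an unadjusted p under 0.05. DESeq2, which called 11.4% of all genes, called 1 of the other chains, Col6a3. Col6a3, the long chain of the beaded collagen VI filaments found in most stroma, came closest. It ranged over 441 to 527 CPM in libraries labelled mutant with a median of 499, against 337 to 475 CPM in controls with a median of 426. The groups overlapped, with a log2 fold change of 0.23 (SE 0.0712, edgeR adjusted p = 0.067). Its partner chains Col6a1 and Col6a2 had log2 fold changes of 0.08 and 0.04. The transmembrane collagen Col13a1 had 0.11 (edgeR adjusted p = 0.141), with 51.9 to 58.4 CPM in mutant and 47.2 to 53.7 CPM in control libraries.

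Control libraries 0 and 3 stood out in part of the collagen chains. They were the highest of all 12 for 11 of the 35 chains, which was true of 2.54% of all genes tested. The 11 comprised Col1a1, Col1a2, Col3a1, Col5a2, Col4a2, Col6a1, Col6a2, Col8a1, Col8a2, Col12a1 and Col14a1. They hold 4 fibrillar chains, 1 basement membrane chain, 6 other chains and 0 cartilage chains. Col8a1, a short-chain collagen of vessel walls and of the corneal basement membrane, ranged over 43.3 to 57.6 CPM in libraries labelled mutant, while control 0 had 78.9 CPM, control 3 had 110 CPM and the other 4 controls had 23.0 to 53.5 CPM. Its highest control library was thus 4.80 times its lowest, and its highest mutant library 1.33 times its lowest. Col14a1, which decorates collagen I fibrils, had 44.97 to 83.5 CPM in libraries labelled mutant, 106 CPM in control 0, 137 CPM in control 3 and 40.7 to 63.7 CPM in the other controls. Over the fibrillar class the median coefficient of variation was 9.99% in mutant and 15.7% in control libraries, and over the other class it was 12.6% and 22.3%. Basement membrane chains had 6.98% and 7.51%, close to the 6.91% and 7.53% of all genes. The control variation was the larger for 22 of 35 chains (7 of 8 fibrillar, 8 of 14 other), beside 57.2% of all genes, and the difference in variation was not tested.

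**Figure D4:**
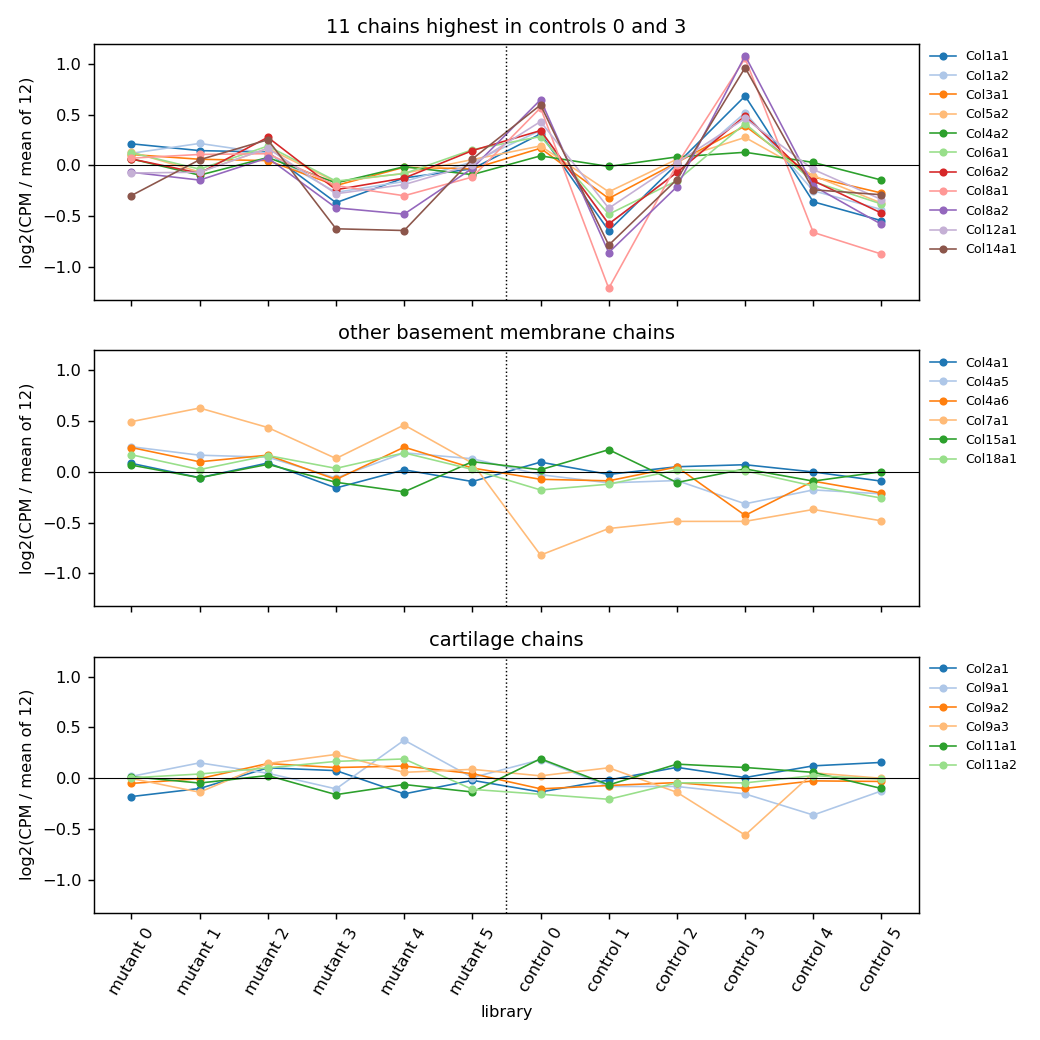
Log2 of the CPM in each library over the mean of the 12 libraries; lines join the points of 1 gene and carry no order. The top panel holds the 11 chains whose 2 highest libraries were controls 0 and 3, so their peak there follows from this choice. It reaches over 1 for Col8a1 and Col8a2. The lower panels hold the other basement membrane chains and the cartilage chains. The remaining fibrillar and other chains are not shown.

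The same 2 controls also had more of other transcripts. They were the 2 highest of 12 in the sums for interstitial matrix partners, genes of collagen synthesis and crosslinking, collagen receptors and endothelial markers. Interstitial matrix partners summed to 3445 CPM in control 0 and 3386 CPM in control 3. Mutant libraries had at most 3232 CPM and the other controls at most 3022 CPM. This was not so for laminins and other basement membrane proteins, collagenases and inhibitors, or mural cell markers. Acan, which encodes aggrecan and was singled out after its values were seen, lay between 2.39 and 14.0 CPM in libraries labelled mutant, with 32.5 CPM in control 0, 40.8 CPM in control 3 and 1.44 to 3.31 CPM in the other 4 controls. The other 16 cartilage and bone markers in the table summed to 52.9 to 61.2 CPM in libraries labelled mutant, 55.7 CPM in control 0, 50.2 CPM in control 3 and 43.7 to 53.7 CPM in the other controls. Fibroblast markers summed to 577 to 672 CPM in libraries labelled mutant, 649.6 CPM in control 0, 605 CPM in control 3 and at most 590 CPM in the other controls. Their part in the spread of the collagens was not tested.

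The values without control 0 and control 3, a setting chosen after the data were seen, are a description, since leaving out the highest controls of the 11 chains must raise their fold changes. Their log2 fold changes then lay between -0.03 for Col4a2 and 0.57 for Col8a1. Col1a1 had 0.37 (SE 0.136, edgeR adjusted p = 0.143), and Col6a1 passed with 0.32 (SE 0.0849, edgeR adjusted p = 0.0448). The counts were then 5 chains higher and 1 lower. The 5 chains called with all libraries were called here too, with edgeR adjusted p between 0.000486 for Col7a1 and 0.0400 for Col18a1.

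Summed by class, the levels of the groups overlapped. Fibrillar chains summed to 3303 to 4322 CPM in libraries labelled mutant with a median of 4051, against 2865 to 5486 CPM in controls with a median of 3676. Basement membrane chains summed to 2027 to 2360 CPM in mutant and 1974 to 2230 CPM in control libraries. Cartilage chains were the most even, at 318 to 348 CPM in mutant and 315 to 341 CPM in control libraries.

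Ratios of chains that share a trimer or fibril did not differ beyond the test. Of 11 pairs compared, 0 passed a two-sided exact permutation test of the group labels after Benjamini-Hochberg adjustment over the pairs; 2 of them had an unadjusted exact p under 0.05. The smallest p that this test can give is 0.00216. Col1a1 to Col1a2, which occur in a fixed ratio in the collagen I heterotrimer, stood at a FPKM ratio of 1.17 ± 0.0446 in mutant and 1.18 ± 0.0970 in control libraries (SD, n = 6 each). The ratio of Col4a1 to Col4a2 was 1.42 ± 0.0227 in mutant and 1.39 ± 0.0418 in control libraries. Of all pairs, Col11a1 to Col11a2 had the smallest p: the ratio was 6.45 ± 0.921 in mutant and 7.64 ± 1.14 in control libraries, with a difference of -0.25 in log2 ratio (exact permutation p = 0.0130, adjusted p = 0.143). Col8a1 to Col8a2 had a difference of 0.29 (exact permutation p = 0.0390, adjusted p = 0.214).

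**Figure D5:**
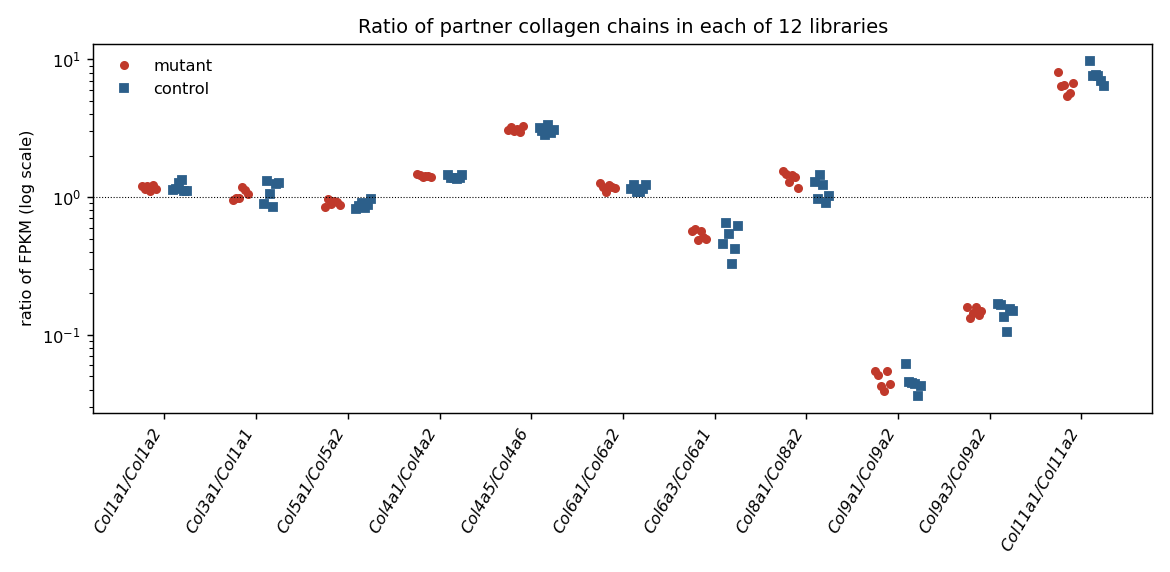
Ratio of the FPKM of partner chains (log axis) in each of the 6 libraries labelled mutant (red) and 6 controls (blue). The groups overlap for all 11 pairs; Col1a1/Col1a2 lies between 1.10 and 1.34 and Col11a1/Col11a2 lies between 5.42 and 9.75.

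Calls in the short lists of genes that make, bind or cut collagen rested on 1 or 2 genes each. They made up 12.5% of the receptors and 11.1% of the collagenases and inhibitors, beside 7.05% of all genes. Of 30 tested genes for collagen synthesis and crosslinking, 0 rose and 2 fell, which is 6.67% beside 7.05% of all genes. Mia3, which loads bulky cargo such as procollagen VII into transport carriers, fell to 303 ± 7.79 CPM in mutant libraries, against 339 ± 14.6 CPM in controls (log2 fold change -0.16, SE 0.0322, edgeR adjusted p = 0.00848). Fkbp14, a procollagen foldase, had a log2 fold change of -0.15 (SE 0.0408, edgeR adjusted p = 0.0374), a call kept in 8 of 25 alternative settings and lost when any of controls 0 to 4 or mutants 0, 1, 2 and 4 was left out (adjusted p up to 0.0920). The lower count of this list was 1 in those fits and 0 without the high-Xist libraries, where Mia3 had an adjusted p of 0.0760. Of 8 collagen receptors, 1 fell: Itga2, the alpha subunit of a collagen-binding integrin, with 6.23 ± 0.533 CPM in mutant and 8.22 ± 1.09 CPM in control libraries (log2 fold change -0.40, SE 0.0939, edgeR adjusted p = 0.0206; 0.0546 without control 1). The call of Itga2 was kept in 20 of 24 alternative settings, with an adjusted p up to 0.0584 in the others. Of 9 collagenases and inhibitors, 1 rose: Timp4, a metalloproteinase inhibitor, with 1.998 ± 0.464 CPM in mutant and 1.14 ± 0.165 CPM in control libraries (log2 fold change 0.80, SE 0.175, edgeR adjusted p = 0.0138). Timp4 averaged 1.59 FPKM in mutant and 0.908 FPKM in control libraries. Its controls thus averaged under the filter level of 1 FPKM, and its call is a description only. Of 20 interstitial matrix partners, 1 was called, which is 5% beside 7.05% of all genes. This was the glycoprotein gene Tnc, which rose with a log2 fold change of 0.47 (SE 0.0962, edgeR adjusted p = 0.00908).

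Among markers of cell types that make collagen, 1 gene was called in each of 4 lists, which is 11.1% of the fibroblast, endothelial and mural lists and 16.7% of the Schwann cell list, beside 7.05% of all genes called in either direction. Of 9 fibroblast markers tested, Pdgfra rose, with 268 ± 21.1 CPM in mutant and 200 ± 31.4 CPM in control libraries (SD, n = 6 each; log2 fold change 0.43, SE 0.0915, edgeR adjusted p = 0.0126). Of 9 endothelial markers, Plvap, a protein of fenestrated capillaries, fell with a log2 fold change of -0.26 (edgeR adjusted p = 0.0286). It kept this call in 16 of 25 alternative settings, and lost it when control 0 or 3 or mutant 0, 3, 4 or 5 was left out (adjusted p up to 0.0664). The endothelial lower count ran from 0 to 2 over the settings. Of 9 mural cell markers, Acta2, the smooth muscle actin, fell with -0.80 (edgeR adjusted p = 0.00455), and of 6 Schwann cell markers, Erbb3 rose with 0.32 (edgeR adjusted p = 0.000671). Of 6 meningeal, 2 muscle and 2 pituicyte markers tested, 0 were called by edgeR and 0 by DESeq2, and 2 had an unadjusted p under 0.05. The meningeal sum was highest in 1 mutant library at 720 CPM, and the gene Ptgds accounted for 313 CPM of it. These lists, too, were chosen with earlier results known, and their part in the collagen results was not tested.

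The authors' deposited table of their own comparison shared 4 of the 5 edgeR calls at the gene level. It tested 39 of the chains and gave a q-value of at most 0.05 to 7: Col7a1, Col4a5, Col4a6 and Col5a3 were higher in the mutant group, and Col24a1, Col14a1 and Col8a2 lower, beside 7.72% of the 18309 genes it tested. Of its 7 chains, 4 were thus also called by edgeR, and Col18a1 was not among them. Only Col7a1 also had the fold of at least 1.5 that the authors required for a mark, which 3.61% of all genes had. Col14a1 and Col8a2, with a log2 fold change of -0.29 and -0.31 in the deposited table, are among the 11 chains highest in controls 0 and 3; without those 2 libraries their log2 fold changes were 0.19 and 0.27.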

How the data were processed

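Per the labels' protocols, RNA was taken with an Ambion micro-scale kit and sequenced from TruSeq v2 libraries, a kit that does not keep the strand. The submitters' processing notes name build mm10 and the tools TopHat2 2.0.9 with Bowtie2 2.1.0, Cuffdiff 2.1.1 with Cufflinks, and FastQC 0.10.1. The deposited table of individual samples holds estimated counts of fragments and FPKM per library, per the file headers. Of the non-zero counts, 89.99% to 90.41% per library were exactly whole, and the rest were rounded. Another 12 per-library columns, of externally scaled fragments, went unused. The authors' deposited comparison tables give FPKM per group, log2 fold changes and q-values.

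The test covered 15246 genes that reached 1 FPKM in 6 or more of the 12 libraries (11883 were set aside). It was the quasi-likelihood test of edgeR 4.0.16 under R 4.3.3, scaled by TMM, without covariates and with Benjamini-Hochberg adjustment over all genes tested. SE and 95% intervals were derived from the F statistic. Limma 3.58.1 on log2 FPKM and DESeq2 1.42.0 were alternatives. The tests were checked on simulated counts. The members and lists were chosen with earlier results of these data known; 3 of the 10 fibroblast markers are also interstitial matrix partners. All collagen chains could be named, and of each other list the called genes and up to 4 with the smallest adjusted p; Acan, Matn1 and Sox9 were added after their values were seen. FPKM of the libraries numbered 0 relate to their counts differently from the others, which touches the limma fits, the filter and the ratios. Precision is limited by 6 libraries per group, of at least 45415453 fragments each. The driver of the Cre transgene is not reported here.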

Additional observations from a re-analysis of the deposited data

Results flagged for a closer look

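Control library 3 lay far from the other controls for 2 chains among 82 groups of 6 libraries examined, each with the gap from its nearest library set against the range of its group. Chance alone flags about 5% of such groups. Col4a4, a collagen IV chain below the level filter, had 4.98 CPM in control 3, against 6.55 to 7.11 CPM in the other controls. Col13a1, a transmembrane collagen, had 47.23 CPM in control 3, against 51.4 to 53.7 CPM in the other controls. The cause was not tested. Control 3 was at the same time the highest of all 12 libraries for 14 of the 35 chains tested.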

How the results depend on the processing

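With the rule of FPKM of at least 5, 2 collagen chains were higher and 0 lower. DESeq2 gave 7 higher, limma with either pseudocount gave 2 higher, and the fit without the 3 high-Xist libraries gave 2 higher and 0 lower. Leaving out 1 library at a time gave 3 to 5 higher chains, and 1 lower chain each time. For all genes, the higher count of 656 became 283 with FPKM of at least 5 and 379 without the high-Xist libraries. It was 935 with DESeq2, 516 and 506 with limma, and 485 to 694 with 1 library left out. DESeq2 called 11.4% of all genes in either direction. The lower count of 419 became 192 with FPKM of at least 5, 807 with DESeq2, 216 and 214 with limma, 144 without the high-Xist libraries, and 197 to 443 with 1 library left out. The cause was not tested, except that fewer genes or libraries enter the filter and left-out fits. With the replicate number as a block, 6 chains were higher and 1 lower, beside 672 higher and 401 lower among all genes. The labels give no litter, so whether the numbers pair the samples is not known. The correlation of same-numbered deviations ran from -0.09 to 0.426. The best-correlated library of the other group carried the same number in 2 of 6 cases. Of partner ratios, 0 passed in the main test and 2 without control 5 (0 to 2 with 1 library left out).

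Signs turned only for uncalled values. Leaving out control 0 and control 3 must raise the fold changes of the 11 chains highest there. Without those controls signs turned for Col12a1 (0.12), Col14a1 (0.19), Col3a1 (0.16), Col8a1 (0.57) and Col8a2 (0.27). The log2 ratios Col1a1/Col1a2 (0.034), Col6a3/Col6a1 (-0.055) and Col9a3/Col9a2 (-0.043) turned too. Without the high-Xist libraries Col1a1 was -0.012 and Col22a1 0.025, and with library totals Col20a1 was 0.014 and Col3a1 0.013. Col3a1 was 0.0062 with FPKM of at least 5, 0.0147 and 0.0148 with limma, 0.0102 with the Y-linked covariate, 0.0107 without both libraries numbered 0, and 0.0159 with the block. Col8a1 was 0.10 and 0.13 with limma, 0.13 with the block and 0.024 without both libraries numbered 0. With 1 library left out, ranges crossing 0 were -0.056 to 0.012 for Col15a1, -0.083 to 0.21 for Col1a1, -0.046 to 0.18 for Col1a2, -0.15 to 0.098 for Col20a1, -0.097 to 0.0101 for Col22a1, -0.061 to 0.092 for Col3a1, -0.033 to 0.098 for Col5a2, -0.052 to 0.17 for Col6a2, -0.24 to 0.25 for Col8a1, and, for ratios, -0.027 to 0.031 for Col1a1/Col1a2 and -0.059 to 0.068 for Col9a3/Col9a2. Low levels limit the test: 6 chains stayed below the filter in every library, and Col10a1 had at most 17 fragments in any library.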
